A study of Mus musculus with 18 samples.

Results

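The Cep genes, here the genes whose annotated symbol is Cep followed by a number, were 37 genes on the array, of 18193 genes with a probe set annotated to a single gene. Each gene was represented by the probe set with the highest mean log2(signal + 16) over all arrays. The gene group was chosen by name with earlier results of these arrays known, and the probe set was chosen by its mean level. Neither choice used a difference between groups, but the group's lower signal at 4 h was known when it was chosen, so its counts describe these arrays and are no independent evidence. Of the 37 genes, 36 passed the filter on dim probe sets, which asked for a signal above the array's own median on at least 4 of 18 arrays. The gene left out of the tests was Cep295nl, whose signal was above the array median on 1 array. The 37 also hold Cep83os, an RNA gene transcribed from the strand opposite Cep83, so it codes for no centrosomal protein.

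Total RNA from mouse immune cells was measured on 18 arrays, with 6 arrays at time zero, 6 at 1 h after treatment and 6 at 4 h. The design text says that knockout mice were treated with a cell wall extract. The labels used here give no gene, strain, age, sex or cell type for the animals, and do not say whether all arrays share a genotype. The 0 h arrays are labelled as controls and the others as taken after treatment, so treatment and time cannot be told apart, and no untreated array at 1 h or 4 h was analysed here. A number in each label, called the array code here, ran over 3 ranges, 44 to 54, 32 to 37 and 12 to 22, and each range held 2 arrays of every time. The labels do not say what the codes stand for. Nothing says whether the 6 arrays of a time came from separate animals, so p-values measure the spread between these arrays, which may be technical.

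The centrosome is a pair of centrioles in a cloud of pericentriolar material that nucleates microtubules, and in resting cells the older centriole can become the base of a primary cilium. Many of its proteins carry the name Cep, for centrosomal protein, with the approximate size of the human protein. They build and copy centrioles, hold the pair together and anchor microtubules, form the appendages and the gate of the cilium, or, for Cep55, finish cell division at the midbody. The centrosome of macrophages also organises the microtubules along which vesicles travel. The roles given below are those known from human and mouse cells.

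Values are the deposited signal of the array, a linear brightness with no further unit. Signals of different probe sets depend on their sequences and were not set against each other. Array medians were 89.8 to 105.4 at 0 h, 86.2 to 108.1 at 1 h and 74.7 to 87.5 at 4 h, although the trimmed mean was 500.0 on every array. The medians at 4 h and 0 h thus did not overlap, and each result is given under this deposited scaling and under quantile normalisation, which gives every array the same distribution. Of the 13 macrophage markers, 12 passed the filter. The highest median signals of this list were those of Csf1r, Adgre1, Cd14 and Lyz2, at 34309, 21941, 36403 and 44321. The lowest were those of Marco, Cd163 and Timd4, at 163, 86.6 and 29.3, and Timd4 did not pass the filter. Of the markers of other leukocytes with a probe set, 6 of 9 neutrophil, 1 of 6 T cell, 2 of 5 B cell and 1 of 4 NK cell markers passed. The neutrophil genes S100a8, S100a9 and Mmp8 had median signals of 811, 521 and 496. In bulk RNA, fewer cells of a type and less RNA per cell cannot be told apart.

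The promoter windows of 4 genes follow, from RefSeq on GRCm38.p6, each holding 250 bases before the start of the transcript and 50 after it, written 5′ to 3′ on the strand of the gene. Cep19 and Cep97 are shown because their signals fell most among the members that passed the test at 4 h, and Cep83os and Cep83 because 1 short stretch of chromosome 10 serves as the start of both while their values at 4 h are set side by side below. Capitals mark the motifs searched for, on either strand. They were the CCAAT box, the core TGCGCA of the NRF1 motif, the stretch GTTGCC of the RFX X-box, an element of cilium gene promoters, the cell cycle homology region TTTGAA and the stretch GGGACTT of a kappaB motif. In the Cep97 window CCAAT overlaps its own reverse complement. The windows lie at chr16:32099539-32099838 on the plus strand for Cep19, chr16:55934799-55935098 on the minus strand for Cep97, chr10:94688564-94688863 on the minus strand for Cep83os and chr10:94688540-94688839 on the plus strand for Cep83.
Cep19: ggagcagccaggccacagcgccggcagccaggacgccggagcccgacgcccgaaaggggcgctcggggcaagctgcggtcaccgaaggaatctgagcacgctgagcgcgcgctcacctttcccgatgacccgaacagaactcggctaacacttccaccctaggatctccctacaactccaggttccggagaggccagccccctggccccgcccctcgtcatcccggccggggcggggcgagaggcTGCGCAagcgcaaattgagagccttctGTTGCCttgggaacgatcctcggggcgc
Cep97: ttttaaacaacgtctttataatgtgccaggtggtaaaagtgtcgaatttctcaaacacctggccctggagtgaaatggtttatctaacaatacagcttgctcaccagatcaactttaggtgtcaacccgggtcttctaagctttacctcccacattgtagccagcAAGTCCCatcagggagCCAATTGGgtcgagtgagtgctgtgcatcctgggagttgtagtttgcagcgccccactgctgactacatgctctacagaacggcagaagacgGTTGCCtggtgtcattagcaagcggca
Cep83os: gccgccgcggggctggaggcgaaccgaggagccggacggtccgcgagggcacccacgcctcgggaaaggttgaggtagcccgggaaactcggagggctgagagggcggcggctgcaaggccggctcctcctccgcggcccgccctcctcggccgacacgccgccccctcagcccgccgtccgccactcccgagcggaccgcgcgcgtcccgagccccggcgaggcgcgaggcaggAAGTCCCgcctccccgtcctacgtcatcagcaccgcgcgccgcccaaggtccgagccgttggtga
Cep83: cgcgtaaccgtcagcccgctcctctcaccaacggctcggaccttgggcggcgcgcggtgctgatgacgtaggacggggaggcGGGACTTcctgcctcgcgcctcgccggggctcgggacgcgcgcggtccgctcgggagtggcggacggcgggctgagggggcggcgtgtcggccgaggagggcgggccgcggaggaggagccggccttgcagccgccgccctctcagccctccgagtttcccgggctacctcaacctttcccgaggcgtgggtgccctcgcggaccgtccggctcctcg

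The Cep83 and Cep83os starts were 177 bases apart and ran in opposite directions, and their windows shared 276 bases. Promoter windows were found for 32 of the 37 genes, 39 windows in all, since some genes have several starts. GTTGCC was in 23.1% of the 39 windows, against 12.5% of all 32851 windows in the table. TGCGCA was in 17.9% of the Cep windows and 7.76% of all, and GGGACTT was in 12.8% and 5.44%. TTTGAA was in 28.2% and 17.9%, and CCAAT in 43.6% and 37.4%. The Cep windows also held more G and C, with a median of 62.3% against 52.7%, and some windows overlap, so these shares were not tested. A match of letters is a description of the sequence and not a measured binding site.

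The question of the first comparison is what had changed by 4 h after treatment. Cep19, Cep97, Cep78, Cep68 and Cep83os fell furthest among the Cep genes that passed the test. Of the 36 genes, 18 fell and 0 rose at 4 h against 0 h with limma at an adjusted p under 0.05. That is 50% of them lower, against 23.1% of all 25804 probe sets tested, and 0% higher, against 9.93%. At an unadjusted p under 0.05, 22 passed in either direction. The median log2 fold change of the 36 was -0.64, against -0.22 over all probe sets. Fold changes lay below 0 for 32 of 36 genes (88.9%), against 67% of all probe sets, and below the median of all probe sets for 28 of 36.

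Under quantile normalisation, which moved the median of all probe sets to -0.07, 10 of the 36 fell (27.8%), against 15% of all probe sets lower and 12.3% higher, and 0 rose. The members' median was then -0.44, or 0.37 below that of all probe sets, against 0.43 below it under the deposited scaling. The 10 were Cep19, Cep57, Cep57l1, Cep68, Cep78, Cep83os, Cep95, Cep97, Cep164 and Cep192, and each of them had also passed under the deposited scaling. Cep43, Cep44, Cep120, Cep128, Cep131, Cep170b, Cep250 and Cep295 passed under the deposited scaling alone.

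**Figure D1:**
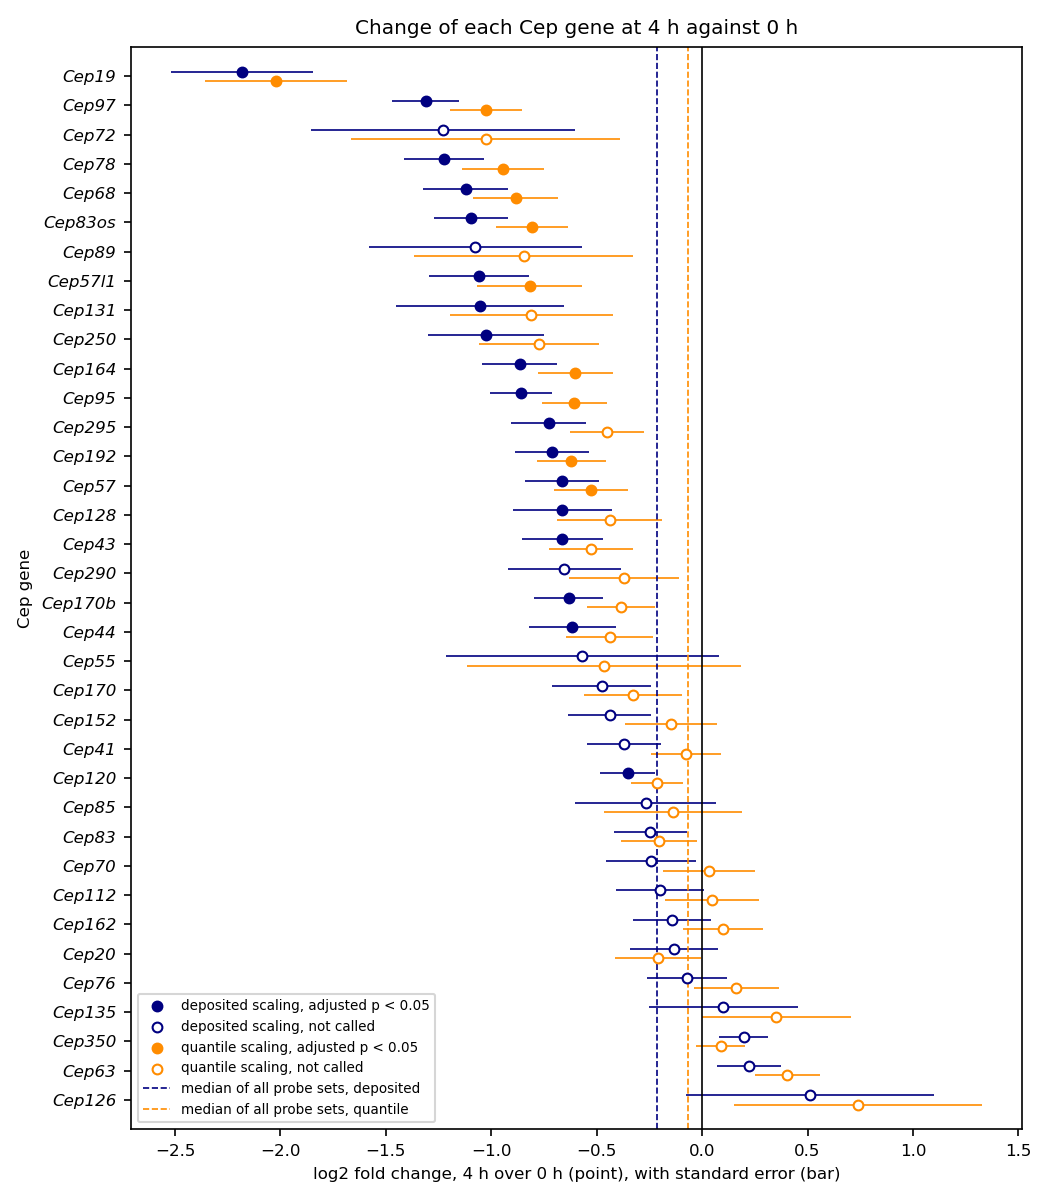
Log2 fold change of each tested Cep gene at 4 h over 0 h (points, horizontal axis) with its standard error (bars), under deposited and quantile scaling. Filled points had an adjusted p under 0.05, and dashed lines mark the medians of all probe sets, -0.22 and -0.07. Under the deposited scaling 32 of 36 points lie left of 0 and all 18 filled points do.

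Cep19, which recruits a small GTPase to the ciliary base, had the largest fall. Its signal was 103, 241 and 522 (lowest, median and highest of 6 arrays) at 4 h, against 851, 1217 and 1467 at 0 h. The highest array at 4 h was below the lowest at 0 h. The log2 fold change was -2.18 (SE 0.34, adjusted p = 8.87e-05) under the deposited scaling and -2.02 under quantile normalisation. Cep97, which caps the growing end of the centriole together with Ccp110, had signals of 53.3, 70.5 and 89.5 at 4 h, against 156, 185 and 277 at 0 h. The groups did not overlap, and the log2 fold change was -1.31 (SE 0.16, adjusted p = 7.79e-06) under the deposited scaling and -1.02 under quantile normalisation. All 3 Cep97 probe sets that passed the filter were called lower with limma under the deposited scaling. Under quantile normalisation a probe set not used to represent the gene was not called (-0.60, adjusted p = 0.059).

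Cep78, a centriole wall protein needed for cilia in photoreceptors, had signals of 57.4, 130 and 143 at 4 h, against 194, 296 and 351 at 0 h. Its log2 fold change was -1.22 (SE 0.19, adjusted p = 9.32e-05), with no overlap. Cep83os had 86.5, 138 and 174 at 4 h, against 194, 313 and 363 at 0 h, again with no overlap, and a log2 fold change of -1.10 (SE 0.17, adjusted p = 1.26e-04). Its neighbour Cep83, a protein of the distal appendages that dock the centriole at the membrane, had 827, 1112 and 1398 at 4 h, against 974, 1394 and 1689 at 0 h. These ranges overlapped, and its log2 fold change of -0.25 (SE 0.17) did not pass (adjusted p = 0.29). The difference between the changes of the 2 neighbours was not tested.

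Cep57l1, a relative of Cep57 in the ring around the centriole, had signals of 114, 207 and 339 at 4 h, against 348, 425 and 589 at 0 h. The ranges did not overlap, and the log2 fold change was -1.06 (SE 0.24, adjusted p = 0.0023). The other Cep57l1 probe set past the filter was not called with limma, at -0.65 (adjusted p = 0.27). Cep68, part of the linker that ties the centrioles together, had 181, 226 and 410 at 4 h, against 394, 589 and 667 at 0 h. Here 1 array at 4 h, with array code 49, reached above the lowest at 0 h, and the log2 fold change was -1.12 (SE 0.20, adjusted p = 3.67e-04). Of the 3 Cep68 probe sets that passed the filter, 2 were called lower with limma under the deposited scaling. Of these 2, the probe set not used to represent the gene did not pass under quantile normalisation (-0.49, adjusted p = 0.099). The remaining Cep68 probe set was at -0.12 (adjusted p = 0.69) under the deposited scaling and 0.15 under quantile normalisation. Cep250, which anchors that linker at the centriole, had 34.2, 83.8 and 122 at 4 h, against 90.9, 178 and 217 at 0 h. Its ranges overlapped, and the log2 fold change was -1.03 (SE 0.27, adjusted p = 0.0079) under the deposited scaling and -0.77 (adjusted p = 0.051) under quantile normalisation.

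Cep131, a satellite protein of the ciliary base, was near the threshold. Its signals were 6.65, 55.2 and 102 at 4 h, against 68.5, 123 and 184 at 0 h, with a log2 fold change of -1.05 (SE 0.40, adjusted p = 0.049). Leaving out any 1 of 14 of the 18 arrays (codes 12, 14, 16, 18, 20, 22, 34, 35, 44, 46, 47, 49, 51 and 54) ended the call, with adjusted p between 0.051 and 0.12. Without array 22, which held the signal of 6.65, the log2 fold change was -0.75 (adjusted p = 0.12).

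In 7 of the 36 genes (19.4%) every array at 4 h lay below every array at 0 h, against 11.3% of all probe sets: Cep19, Cep57l1, Cep78, Cep83os, Cep95, Cep97 and Cep295. Under quantile normalisation there were 4 (11.1%), against 7.95%: Cep19, Cep78, Cep95 and Cep97.

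**Figure D2:**
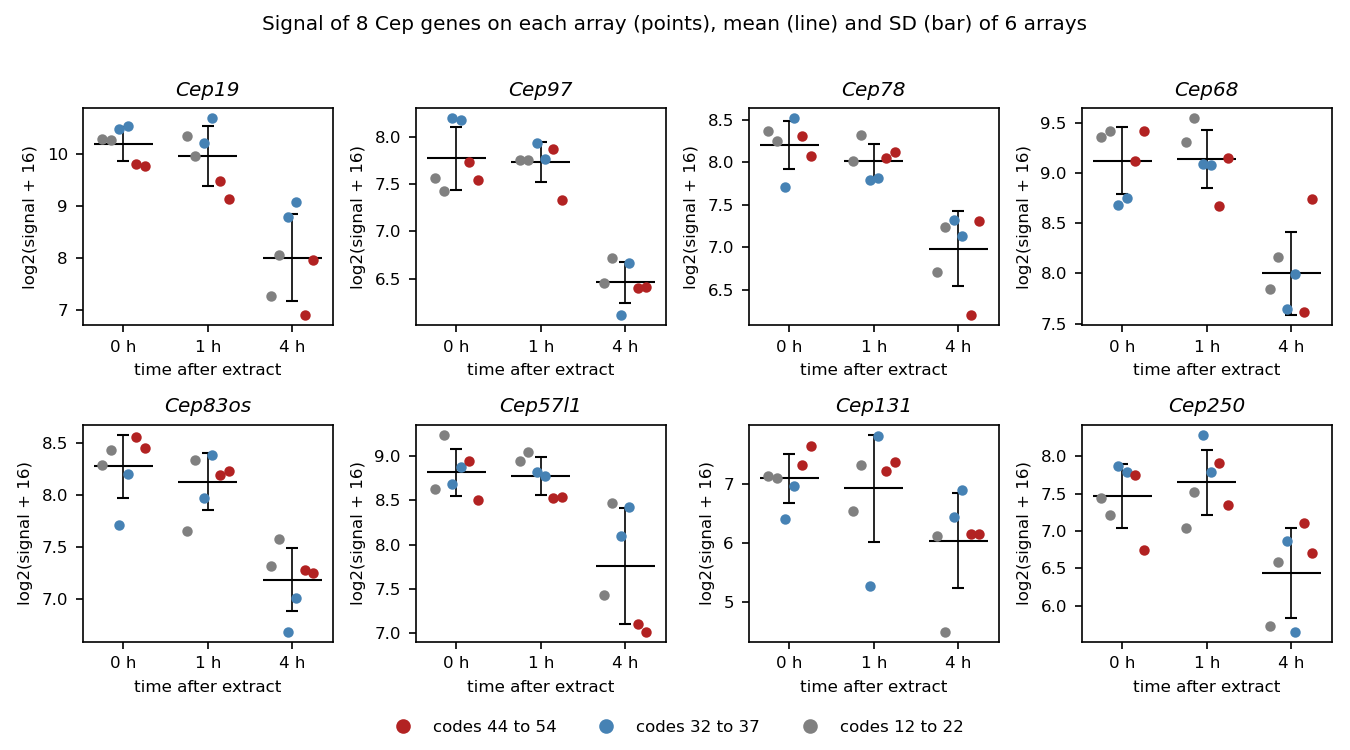
Signals of 8 Cep genes on each array on a log2 scale (points, coloured by range of array codes), with the mean (line) and SD (bar) of the 6 arrays at 0 h, 1 h and 4 h. In Cep19, Cep97, Cep78, Cep83os and Cep57l1 every 4 h point lies below every 0 h point.

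By role, 12 members act in building, copying or counting centrioles, and 7 of them fell, or 58.3%, against 23.1% of all probe sets, with a median log2 fold change of -0.53. Under quantile normalisation 4 fell, or 33.3%, against 15%. Cep192, the scaffold that recruits the kinases of centriole copying and spindle assembly, had signals of 499, 723 and 1043 at 4 h, against 1030, 1185 and 1372 at 0 h. Its log2 fold change under the deposited scaling was -0.71 (SE 0.17, adjusted p = 0.0043). Cep57, part of the ring around the centriole, had 361, 511 and 784 at 4 h, against 702, 787 and 1125 at 0 h, with a log2 fold change of -0.66 (adjusted p = 0.0070). Cep295, which turns new centrioles into centrosomes, had 159, 191 and 227 at 4 h, against 281, 312 and 392 at 0 h, with a log2 fold change of -0.73 (adjusted p = 0.0044). In Cep57 and Cep192 the array with code 34 alone, at 4 h, reached into the 0 h range, and in Cep295 the ranges did not overlap.

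Cep44, also of the centriole conversion step, and Cep120, which elongates centrioles, passed with log2 fold changes of -0.62 (adjusted p = 0.028) and -0.35 (adjusted p = 0.046). Both calls depended on single arrays. That of Cep44 ended without any 1 of 6 arrays (codes 16, 18, 32, 35, 46 and 49), at adjusted p between 0.050 and 0.067. That of Cep120 ended without any 1 of 13 (codes 12, 16, 20, 22, 32, 33, 35, 44, 46, 47, 49, 51 and 54), at 0.050 to 0.10. The members of this role that did not pass were Cep63, Cep76, Cep85, Cep135 and Cep152, with log2 fold changes of 0.22, -0.07, -0.27, 0.10 and -0.44. Of these 5, Cep63 had the highest fold change, with signals of 427, 484 and 621 at 4 h, against 330, 434 and 538 at 0 h.

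Of the 12 members with roles at the cilium or its satellites, 5 fell (41.7%, against 23.1% of all probe sets), and 3 under quantile normalisation (25%, against 15%), with a median of -0.66 under the deposited scaling. Beside Cep19, Cep78 and Cep131 these were Cep164, the distal appendage protein that starts ciliogenesis, and Cep43, a partner of Cep19. Cep164 had signals of 113, 177 and 333 at 4 h, against 298, 353 and 374 at 0 h, with a log2 fold change of -0.87 (SE 0.18, adjusted p = 0.0011). Cep43 had 465, 517 and 749 at 4 h, against 722, 762 and 1189 at 0 h, with a log2 fold change of -0.66 (SE 0.19, adjusted p = 0.014). For Cep164 and Cep43 the highest 4 h arrays overlapped the 0 h arrays.

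Other cilium members did not pass. Cep290, a part of the gate at the transition zone, had a log2 fold change of -0.65 (adjusted p = 0.070), and Cep89, of the distal appendages, -1.08 (adjusted p = 0.11). Cep89 spanned 10.2 to 423 at 4 h, against 202 to 559 at 0 h. The value of this probe set rested on single arrays. Without array 16, which held the signal of 10.2, the log2 fold change was -0.56 (adjusted p = 0.25), and without array 37 it was -1.38 and passed (adjusted p = 0.040). The other Cep89 probe set past the filter was called lower with limma, at -0.62 (adjusted p = 0.025). Under quantile normalisation it was not called (-0.34, adjusted p = 0.26). Cep290 passed without array 34, at -0.78 (adjusted p = 0.037), Cep152 without array 47, at -0.56 (adjusted p = 0.031), and Cep41 without array 12 or 22, at -0.47 and -0.49 (adjusted p = 0.048 and 0.029). Cep41, Cep162, Cep83 and Cep20 had values between -0.37 and -0.13. Of the 3 Cep162 probe sets past the filter, 1 was called lower with limma, at -0.93 (adjusted p = 0.023). Under quantile normalisation it was not called (adjusted p = 0.13). Cep126 had the highest value of the 36, 0.51 (SE 0.59, adjusted p = 0.54), on a dim probe set with signals of 19.7, 62.5 and 202 at 4 h, against 10.6, 23.1 and 133 at 0 h.

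Of the 6 members of the linker and of microtubule anchoring, 4 fell (66.7%, against 23.1% of all probe sets), and 1 under quantile normalisation (16.7%, against 15%), with a median of -0.65 under the deposited scaling. These were Cep68, Cep250, Cep170b, a relative of the subdistal appendage protein Cep170, and Cep128, of the same appendages. Cep170b had signals of 139, 262 and 313 at 4 h, against 310, 385 and 463 at 0 h, with a log2 fold change of -0.63 (adjusted p = 0.0068). Cep128 had 184, 349 and 424 at 4 h, against 334, 493 and 692 at 0 h, with a log2 fold change of -0.66 (adjusted p = 0.038). The Cep128 call ended without any 1 of 6 arrays (codes 16, 18, 32, 35, 46 and 49), at adjusted p between 0.053 and 0.095. Of the 4 Cep128 probe sets past the filter, 2 were called lower with limma. They were the probe set used here and another at -1.07 (adjusted p = 0.0025). The latter also passed under quantile normalisation, at -0.82 (adjusted p = 0.023). Cep350, a large microtubule anchoring protein, had 3288, 4116 and 4676 at 4 h, against 3145, 3554 and 3911 at 0 h, a log2 fold change of 0.20 (adjusted p = 0.21). Cep170 did not pass with limma either, at -0.48 (adjusted p = 0.13). Its other probe set past the filter was called lower, at -0.61 (adjusted p = 0.027), but not under quantile normalisation (adjusted p = 0.12).

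Cep55, the abscission factor, had signals of 281, 659 and 2012 at 4 h, against 489, 880 and 3386 at 0 h. The ranges overlapped over most of their length, and the log2 fold change of -0.57 (SE 0.65) did not pass (adjusted p = 0.53). The two-sided exact permutation test over the 6 by 6 arrays gave p = 0.422 for Cep55. It was also run on the 8 genes with the largest falls, but these were picked by the same comparison and their p-values are not given. The array codes of 4 h and 0 h arrays can also be read as 6 consecutive pairs, 16 and 12, 22 and 18, 34 and 32, 37 and 35, 46 and 44, and 49 and 47, although no label says that these arrays belong together. In a fit with these pairs as a block, added after the data were seen, Cep55 fell by 0.57 on the log2 scale (SE 0.10, adjusted p = 0.0044), and under quantile normalisation by 0.47 (adjusted p = 0.013). It was lower at 4 h in 6 of 6 pairs, by differences of -0.54, -0.37, -0.76, -0.49, -0.76 and -0.48 in the order of the pairs. With the code range as the block in place of these pairs, Cep55 did not pass with limma (SE 0.24, adjusted p = 0.071). Under quantile normalisation with that block it did not pass either (adjusted p = 0.15). The call of Cep55 thus depended on which block was used.

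Of the 5 members with no role assigned here, Cep95 and Cep83os fell under both scalings (40% of them, against 23.1% of all probe sets under the deposited scaling and 15% under quantile normalisation). Cep95 had 175, 211 and 241 at 4 h, against 301, 393 and 474 at 0 h, a log2 fold change of -0.86 (SE 0.15, adjusted p = 2.38e-04) without overlap. The other Cep95 probe set past the filter was not called with limma, at -0.38 (adjusted p = 0.11). Under quantile normalisation that probe set was at -0.07 (adjusted p = 0.79). Cep72 had a log2 fold change of -1.23 but an SE of 0.63 and did not pass (adjusted p = 0.14), with signals of 5.14 to 129 at 4 h, against 11.0 to 197 at 0 h. With consecutive codes as pairs it passed (SE 0.34, adjusted p = 0.024) and was lower at 4 h in 5 of 6 pairs. With these pairs under quantile normalisation it did not pass (adjusted p = 0.055). With the code range as the block, limma did not call it under the deposited scaling (adjusted p = 0.063) or under quantile normalisation (adjusted p = 0.14). Cep70 and Cep112 did not pass with limma without a block, at -0.24 and -0.20 (adjusted p = 0.41 and 0.50).

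Under the deposited scaling, further probe sets of the same genes mostly ran the same way. Of the 22 genes with several probe sets past the filter, 19 had all of them on the same side of 0, and in 0 of them were probe sets called in opposite directions. The 3 others were Cep85, Cep112 and Cep350. Under quantile normalisation the probe sets of Cep68, Cep70, Cep83, Cep85 and Cep162 lay on both sides of 0. Of the 28 probe sets not used to represent a gene, 13 were called lower and 0 higher at 4 h against 0 h under the deposited scaling. Of all probe sets, 23.1% were lower and 9.93% higher. Under quantile normalisation 4 of the 28 were lower, near the 15% of all probe sets, and 1, of Cep85, was higher, against 12.3%. The 28 share RNA and arrays with the others and are not replicates.

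At 1 h against 0 h limma called 0 of the 36 genes lower and 0 higher, against 0.14% of all probe sets lower and 0.612% higher. At an unadjusted p under 0.05 there was 1, and 2 when the fit also held a term for code range. Under quantile normalisation limma called 0 in each direction as well, against 0.159% and 0.705% of all probe sets. Under the deposited scaling the median log2 fold change was -0.04, as over all probe sets, and values ran between -0.28 for Cep290 and 0.58 for Cep135. The gene with the smallest p was Cep112, at 0.51 (SE 0.21, adjusted p = 0.56).

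At 4 h against 1 h, 17 genes fell and 0 rose (47.2% lower, against 16.7% of all probe sets, and 7.7% of all higher), and 22 passed an unadjusted p under 0.05 with limma. Under quantile normalisation 10 fell and 0 rose (27.8% lower, against 10.4% of all probe sets lower and 9.3% higher). The median under quantile normalisation was -0.42, against -0.03 over all probe sets. Under the deposited scaling it was -0.59, against -0.17. This comparison uses the same 4 h arrays as the one against 0 h, so the 16 genes lower in both are not a second observation. Cep128 and Cep131 passed against 0 h alone and Cep112 against 1 h alone, and the difference between these calls was not tested. Cep19 had 545, 1071 and 1626 at 1 h, and its log2 fold change at 4 h against 1 h was -1.96 (SE 0.34, adjusted p = 3.72e-04). Cep97 had 146, 201 and 229 at 1 h (log2 fold change -1.27), Cep250 116, 187 and 297 (-1.21), and Cep68 390, 541 and 730 (-1.14). The highest 4 h array lay below the lowest 1 h array in Cep19 and Cep97, while Cep250 and Cep68 overlapped. Such a gap was found in 7 of 36 genes (19.4%, against 6.76% of all probe sets) and, under quantile normalisation, in 2, Cep78 and Cep97 (5.56%, against 4.55%).

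The change at 4 h was then read within each range of array codes, which held 2 arrays at each time. Fold changes at 4 h against 0 h lay below 0 in all 3 ranges for 25 of the 36 genes under the deposited scaling and for 23 under quantile normalisation. Over all arrays, 67% and 55.6% of all probe sets lay below 0 under these scalings. Their share below 0 in all 3 ranges was not counted, so the counts of 25 and 23 do not set the Cep genes apart. Under the deposited scaling the fold changes of Cep19 were -2.36 in codes 44 to 54, -1.57 in codes 32 to 37 and -2.61 in codes 12 to 22. For Cep97 they were -1.23, -1.80 and -0.91 in the same order, and for Cep83os -1.25, -1.12 and -0.92. All 3 genes were lower in each range, but they were picked for their falls over these same arrays, so this is no separate evidence. A test of the difference between ranges called 0 of 36 members with limma, against 0.837% of all probe sets, and 2 at an unadjusted p under 0.05, Cep97 and Cep70. The smallest adjusted p among members was 0.46. With the code range as a block, 22 genes fell at 4 h against 0 h (61.1%, against 30.3% of all probe sets), adding Cep89, Cep152, Cep170 and Cep290. With the block under quantile normalisation 15 fell (41.7%, against 21.1%) and Cep63 rose, at 0.40 (adjusted p = 0.036), against 15.5% of all probe sets higher. Under the deposited scaling with the block 0 rose, against 12.6%. With consecutive codes as pairs 19 fell and 0 rose (52.8% lower, against 29.2% of all probe sets lower and 11.7% higher), with Cep55 and Cep72 added and Cep120 (adjusted p = 0.081) lost. With these pairs under quantile normalisation 14 fell and 0 rose (38.9% lower, against 19.8% lower and 14.8% higher).

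**Figure D3:**
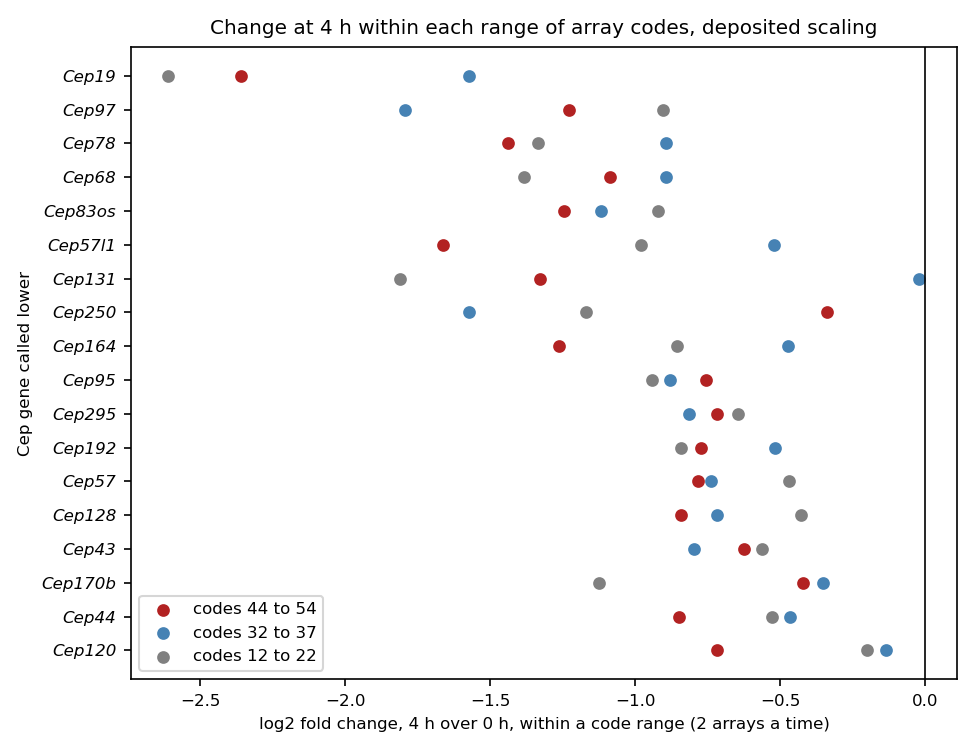
Log2 fold change at 4 h over 0 h under the deposited scaling within each range of array codes, for the 18 genes called lower over all arrays (2 arrays a time in each range). Every point lies below 0, and Cep131 in codes 32 to 37 lies nearest to it at -0.02. The genes were chosen by their fall over these same arrays, which makes points below 0 likely in advance.

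Between the ranges themselves, with time as a term in the fit, Cep55 was the member that differed most. Its signals were 281, 478 and 655 in codes 44 to 54, 1993, 2600 and 3401 in codes 32 to 37 and 374, 702 and 1210 in codes 12 to 22. Codes 32 to 37 thus did not overlap with the other ranges. The log2 fold change was -2.45 (SE 0.24, adjusted p = 8.57e-06) for codes 44 to 54 over 32 to 37 and 1.87 (SE 0.24, adjusted p = 1.13e-04) for codes 32 to 37 over 12 to 22. The labels tie these ranges to no named condition, and the 3 comparisons between ranges share arrays.

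Genes of mitosis and cytokinesis moved along these ranges with Cep55. Of the 23 measured, 23 fell in codes 44 to 54 against 32 to 37 (100%, against 8.25% of all probe sets), with a median of -2.20. In codes 32 to 37 against 12 to 22, 23 rose (100%, against 9.65%), with a median of 1.55. In codes 44 to 54 against 12 to 22, 9 fell (39.1%, against 8.66%), with a median of -0.54. Their mean log2(signal + 16) was 9.18 ± 0.33 in codes 44 to 54, 11.43 ± 0.26 in codes 32 to 37 and 9.90 ± 0.70 in codes 12 to 22 (SD, n = 6 arrays each). Markers of other cells moved too. The summed signal of 8 fibroblast and stromal markers, 6 of them past the filter, was 12857 to 18123 in codes 44 to 54, 3239 to 6601 in codes 32 to 37 and 1019 to 1626 in codes 12 to 22. The summed signal of 9 neutrophil markers was 863 to 1186, 1689 to 2968 and 3415 to 5668 in the same order. Lum and Thy1 of the stromal list and Elane, Mpo and Cxcr2 of the neutrophil list did not pass the filter. The part of these cells in the Cep values was not tested.

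In codes 32 to 37 against 12 to 22, 4 Cep genes rose and 0 fell (11.1% higher, against 9.65% of all probe sets, and 8.12% lower), and 13 passed an unadjusted p under 0.05 with limma. Beside Cep55 these were Cep89 at 1.47 (SE 0.36, adjusted p = 0.0098), Cep20, a small protein of cilium formation, at 0.55 (SE 0.12, adjusted p = 0.0043) and Cep43 at 0.50 (SE 0.11, adjusted p = 0.0058). Cep20 had signals of 3022, 3651 and 4351 in codes 32 to 37, against 2148, 2537 and 2734 in codes 12 to 22, without overlap. Cep89 had 293, 514 and 587, against 10.2, 249 and 268, also without overlap. Cep43 had 563, 1110 and 1336, against 465, 725 and 957, with overlap. Under quantile normalisation Cep135 was the fifth to rise (13.9%, against 9.18% of all probe sets higher and 9.04% lower). The count of 4 became 7 without array 14 or array 37 and 8 without array 22.

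In codes 44 to 54 against 12 to 22, 3 genes fell and 0 rose (8.33% lower, against 8.66% of all probe sets lower and 10.5% higher), and 8 passed an unadjusted p under 0.05 with limma. These were Cep128 at -0.59 (SE 0.15, adjusted p = 0.011), Cep83 at -0.46 (SE 0.13, adjusted p = 0.023) and Cep152, which brings the kinase Plk4 to the centriole, at -0.45 (SE 0.13, adjusted p = 0.026). Cep83 had signals of 967, 1000 and 1220 in codes 44 to 54, against 1126, 1450 and 1689 in codes 12 to 22. Cep152 had 93.9, 132 and 216, against 169, 192 and 231. Cep128 had 184, 353 and 425, against 319, 463 and 597. All 3 overlapped. Under quantile normalisation Cep19, Cep44 and Cep57l1 also fell (16.7%, against 10.6% of all probe sets lower and 9.1% higher). The count was 1 without array 22, 47 or 51 and 5 without array 16. Without array 51, or without array 34 or 46, 1 gene was called higher. The calls of Cep83 (without arrays 12, 22, 44, 47 or 51) and Cep152 (without arrays 20, 22, 46, 47 or 51) ended at adjusted p between 0.051 and 0.069.

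In codes 44 to 54 against 32 to 37, 11 genes fell and 1 rose (30.6% lower, against 8.25% of all probe sets, and 2.78% higher, against 8.87%). Under quantile normalisation 14 fell and 1 rose (38.9%, against 9.11% lower and 8.06% higher). After Cep55 the largest falls under the deposited scaling were Cep89 at -1.25 (SE 0.36, adjusted p = 0.024), Cep19 at -1.12 (SE 0.21, adjusted p = 0.0018) and Cep128 at -0.75 (SE 0.15, adjusted p = 0.0023). Cep19 had signals of 103, 619 and 882 in codes 44 to 54, against 427, 1284 and 1626 in codes 32 to 37, with overlap. The others were Cep20, Cep43, Cep44, Cep57, Cep70, Cep76 and Cep152, between -0.67 and -0.51. Cep170 rose at 0.58 (SE 0.19, adjusted p = 0.044), and that count was 0 without any 1 of 12 arrays (codes 12, 14, 18, 20, 22, 32, 35, 37, 44, 47, 49 and 54). The Cep89 call ended without array 37, 44 or 54, at adjusted p between 0.051 and 0.056.

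**Figure D4:**
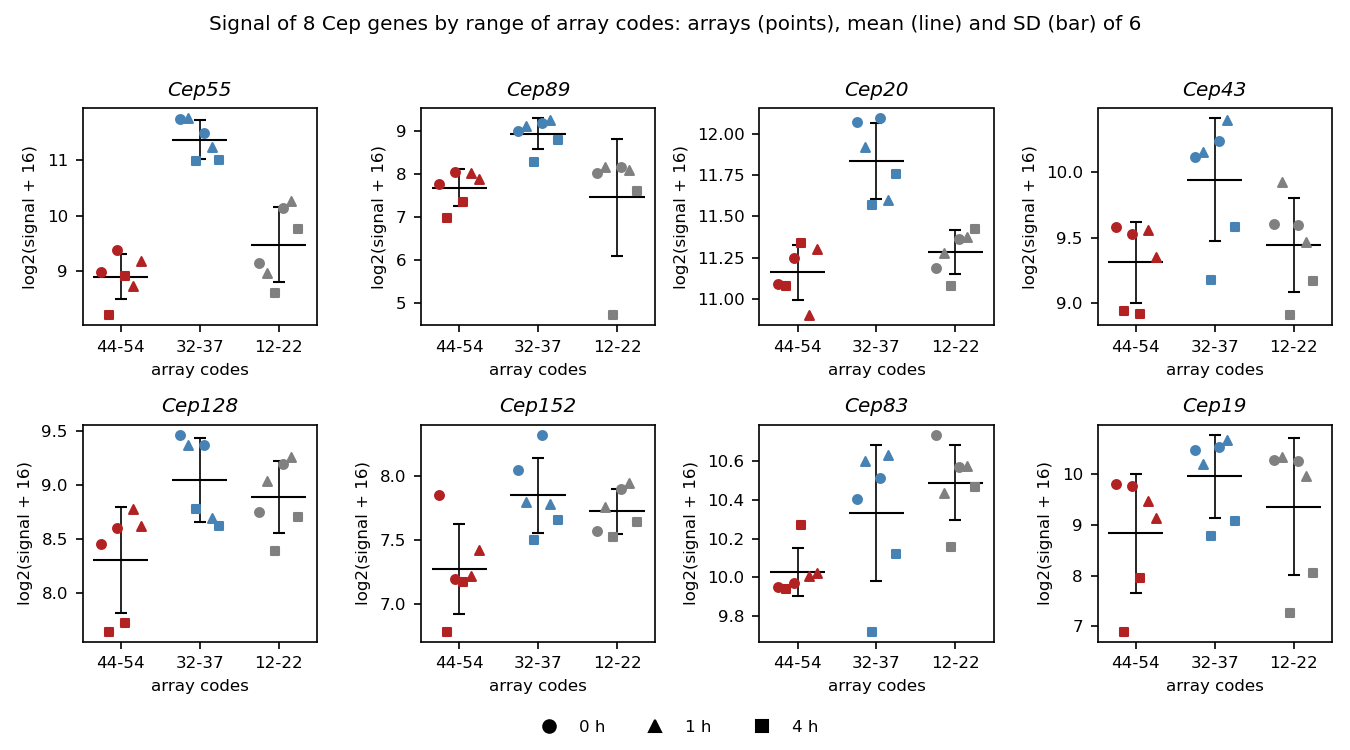
Signals of 8 Cep genes on each array on a log2 scale, by range of array codes (points, shape by time), with the mean (line) and SD (bar) of the 6 arrays of a range. All Cep55 points of codes 32 to 37 lie above those of the other ranges, and in Cep19 the squares of 4 h lie lowest in every range.

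Other genes of the centrosome and cilium, taken from lists chosen with earlier results known, were read at 4 h against 0 h beside the Cep genes. Of 22 measured genes of the transition zone and of transport in the cilium, 14 fell and 1 rose (63.6% lower and 4.55% higher, against 23.1% and 9.93% of all probe sets), with a median of -0.68. Under quantile normalisation 11 fell and 1 rose (50% lower, against 15%, and 4.55% higher, against 12.3%). Bbs2 and Ift81, of the cargo and train complexes, had log2 fold changes of -1.40 (SE 0.29, adjusted p = 0.0013) and -1.35 (SE 0.25, adjusted p = 4.65e-04), and Ift57, of the same trains, rose by 1.74 (SE 0.21, adjusted p = 7.84e-06). Of 19 genes of the pericentriolar material and the gamma-tubulin and augmin complexes, 11 fell (57.9%, against 23.1%), and 7 under quantile normalisation (36.8%, against 15%), with a median of -0.56 under the deposited scaling. The augmin subunits Haus4, Haus8 and Haus3, which branch microtubules in the spindle, had values of -1.43, -0.97 and -0.87. Of 8 genes of the appendages and the linker, 4 fell (50%, against 23.1%), the largest of them Sclt1, of the distal appendages, at -0.70. Under quantile normalisation limma called 0 of the 8, against 15% of all probe sets lower, and 2 had an unadjusted p under 0.05.

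Of 13 genes of the centriole core, 4 fell and the median was -0.45. The share of 30.8% was near the 23.1% of all probe sets, and under quantile normalisation 2 fell (15.4%, against 15%). The 4 were Rttn at -1.20, Ccp110, the partner of Cep97, at -0.79 (adjusted p = 0.045), Poc1b at -0.68 and Cetn2, a centrin, at -0.63. Of 6 satellite genes, 2 fell, Sdccag8 at -1.15 and Bbs4 at -0.76, and 1 under quantile normalisation. These were 33.3%, against 23.1% of all probe sets, and 16.7%, against 15%. Of 23 genes of mitosis and cytokinesis, 0 passed with limma in either direction and 0 had an unadjusted p under 0.05, with a median of -0.54. With a block for code range 8 fell (34.8%, near the 30.3% of all probe sets). Their means at 4 h and 0 h were 9.83 ± 1.12 and 10.35 ± 1.09 (SD, n = 6 arrays each) over all 3 code ranges, whose means differed as given above. Of the 12 macrophage markers that passed the filter, 3 rose and 2 fell at 4 h against 0 h. These were 25% higher and 16.7% lower, against 9.93% and 23.1% of all probe sets. The sum of the 12 with 1 more marker was 177261 to 213434 at 4 h and 168882 to 197515 at 0 h. The summed stromal list was 1263 to 14665 at 4 h and 1066 to 18123 at 0 h. The sum of the 9 neutrophil markers was 998 to 5668 at 4 h and 863 to 4181 at 0 h. Of the 6 neutrophil markers tested, limma called 0, with 0 at an unadjusted p under 0.05 and a median of 0.33. With the code range as a block 2 rose and 1 fell (33.3% and 16.7%, against 12.6% and 30.3% of all probe sets). With the block under quantile normalisation 4 rose and 1 fell (66.7% and 16.7%, against 15.5% and 21.1%), with a median of 0.57. The part of these markers in the Cep values was not tested.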

How the data were processed

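Total RNA of mouse immune cells was measured on 18 arrays, 6 each at 0 h, 1 h and 4 h. The deposited values are linear signal intensities from GCOS and MAS5, per the submitters' processing notes, and the trimmed mean of each array was 500.0, so the authors' scaling was kept as the main setting. Intensities were turned to log2(signal + 16). Of 45101 probe sets, 25804 (57.3%) lay above their own array's median on at least 4 of 18 arrays and were tested. Means per time, or per range of array codes with time as a term, were fitted with limma 3.58.1 in R 4.3.3, with Benjamini-Hochberg adjustment over all 25804 and a threshold of 0.05. The fit was tested on simulated data. Probe sets were named from the platform annotation of GEO, and the 37 symbols matched RefSeq.

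The members and lists were chosen with earlier results of these data known. Named in detail are the 8 largest falls at 4 h against 0 h past the threshold, up to 4 in each other comparison, Cep55, and up to 3 of each other list (Poc1b and Cetn2, of a count of 4, were added after their values were seen). Alternatives were quantile normalisation, centring on the array median, added constants of 1 and 64, other filters, a block for code range, consecutive codes as pairs (chosen after seeing the data), fits within ranges, the mean of probe sets, a variance trend and leaving out each array. The number of arrays limits the precision. Genotype, cell type and genes of the series title are not analysed here.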

Additional observations from a re-analysis of the deposited data

Results flagged for a closer look

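In 3 of 111 groups of 6 arrays of a Cep gene, the lowest array lay far from the others by Dixon's test (critical value 0.625), which chance flags in about 1 in 20 groups. Cep97 at 1 h had 145.646 on the array with code 54, with the other 5 at 199 to 229. Cep131 at 4 h had 6.6478 on the array with code 22, with the others at 53.4 to 102. Cep135 at 1 h had 42.7228 on the array with code 51, with the others at 91.9 to 134.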

How the results depend on the processing

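Across 30 alternatives other than fits within a code range, Cep19, Cep57l1, Cep68, Cep78, Cep83os, Cep95, Cep97 and Cep164 kept a call of lower at 4 h against 0 h in every one. Replicate numbers follow accession order and pair no arrays. Pairs of consecutive codes as a replicate block, chosen after seeing the data, gave 19 lower, and 14 with quantile normalisation. Deviations from the mean of a time and code range correlated at 0.12 to 0.18 within these pairs, in arrays that no label pairs. The counts below show only how the calls moved with the processing. Where the share of all probe sets called in the same fit is not given above, they do not set the Cep genes against other genes. At 4 h against 0 h, genes called lower were 10 under quantile normalisation and 8 with arrays centred on their median (median -0.39), and 9, 2 and 5 within codes 44 to 54, 32 to 37 and 12 to 22, where 2 arrays a time were left. Genes called higher were 2 with centring (Cep63 and Cep350) and 1 with the block and quantile normalisation (Cep63). Leaving out single arrays gave 14 to 19 lower and 0 higher. At 4 h against 1 h, 10 fell under quantile normalisation, 9 with centring (median -0.35) and 7, 0 and 6 within the ranges in the same order, and 16 to 20 without single arrays. Between codes 44 to 54 and 12 to 22, genes lower were 6 with quantile normalisation or centring, 1 with no filter and 0 with no term for time or with 0 h arrays alone. Genes higher were 1 with a constant of 64, a filter of 12 arrays, the mean of probe sets or a variance trend. Single arrays gave 1 to 5 lower and 0 to 1 higher. Between codes 32 to 37 and 12 to 22, genes higher were 9 with a constant of 64, 2 with no term for time, 0 with 0 h arrays alone and 4 to 8 without single arrays. Between codes 44 to 54 and 32 to 37, genes lower were 17 with centring, 4 with no term for time and 2 with 0 h arrays alone, and genes higher were 0 under these and with no filter, and 0 to 1 without single arrays. The cause was not tested.

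Fold changes at 4 h against 0 h changed sign in 11 genes that had not passed. Under quantile normalisation, without and with either block, Cep70 was 0.033, Cep76 0.16, Cep112 0.046 and Cep162 0.099. With centring Cep20 was 0.12, Cep70 0.012, Cep76 0.18, Cep83 0.0081, Cep112 0.055 and Cep162 0.11. With the mean of probe sets Cep85 was 0.021, Cep112 0.16 and Cep350 -0.027. Within codes 12 to 22 Cep41 was 0.067, Cep63 -0.0089, Cep76 0.26 and Cep162 0.057. Within codes 32 to 37 Cep70 was 0.20, Cep112 0.25 and Cep135 -0.33. Within codes 44 to 54 Cep20 was 0.038, Cep83 0.14 and Cep135 -0.22. Without single arrays Cep76 ran between -0.15 and 0.0082, Cep135 between -0.21 and 0.26 and Cep162 between -0.23 and 0.0058.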
